A study of Arabidopsis thaliana with 8 samples.

Results

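The first stretch of an Arabidopsis thaliana chromosome 4 tiling array, the tiles on plates TA01 to TA20, was examined for dimethylation of histone H3 at lysine 4 (H3K4me2). Tiles were taken by their ID, which gives a tile series, a plate and a well, and were read plate by plate along the well rows. Of 1912 tiles listed on these 20 plates, 1865 had a value on every array and 47 had none; the array as a whole held 21296 such tiles. The plates were chosen by their log ratio, since they precede a long low block that starts at plate TA21, so the level of the stretch and its contrast with that block were part of the choice and are given as descriptions. Genes, sequences and coordinates of the tiles were not used here, and tiles were ordered by ID alone.

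Chromatin came from seedlings of the accession C24, aged 10 days, grown untreated in liquid medium at 22 °C with a 16 h photoperiod. DNA precipitated with an antibody against H3K4me2 (IP) was hybridised against input DNA in 4 replicates of 50 µg (I to IV), with a dye-swapped pair of arrays for each. There was 1 group, with neither another genotype nor a control antibody, and whether the replicates were separate cultures is not given in the labels; p-values therefore measure only the spread between these samples.

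H3K4me2 is deposited by methyltransferases of the Trithorax type and sits on nucleosomes over and near genes. In plants it is a mark of euchromatin, found over active genes and also over many genes that are little transcribed, and it is depleted from the transposon-rich heterochromatin around centromeres. Along a gene-rich chromosome arm the mark is therefore known to come and go over short distances, while heterochromatin forms long stretches with little of it.

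The deposited values are log ratios of IP and input; the sources used here state neither the base nor the direction. Both arrays of each of the 4 dye swaps held identical values and were counted as 1 sample. Array medians as deposited were -0.79, -0.46, -0.89 and -0.35 in I to IV. Every value below is a log ratio minus the array's median, in deposited log units, and is described as above or below that median rather than as enriched or depleted. On the stretch replicates resembled each other in pairs: Pearson's r over the 1865 tiles was 0.987 for I with III and 0.986 for II with IV, and 0.948 to 0.954 for the other pairs.

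The stretch lay close to the middle of the array, with tiles far to either side. Its median was 0.08, 0.18, 0.13 and 0.14 in I to IV, a mean of 0.13 ± 0.04 (SD, n = 4). All 4 replicates were above the array median, by little. By limma's moderated test (4 replicates, Benjamini-Hochberg adjustment over all 21296 tiles, threshold 0.05), 845 of the 1865 tiles (45.3%) were above the array median, beside 42.2% of the whole array. Another 725 (38.9%) were below it, beside 42.3% of the array, and 295 did not pass. The 5th percentile of the stretch was -3.03 ± 0.19 and the 95th was 1.80 ± 0.08, so the low side reached farther than the high side. The same held for the whole array, at -2.89 ± 0.10 and 1.81 ± 0.07. The tile-to-tile SD was 1.44 ± 0.08, against a median SD over replicates of 0.23 for a single tile. Differences among the tiles were thus mostly far larger than the replicate error.

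In spread the stretch resembled the array as a whole and plates TA31 to TA36, which lie between low blocks of the same series. Its tile-to-tile SD of 1.44 compared with 1.44 ± 0.01 (n = 4) over all tiles and 1.40 ± 0.01 on TA31 to TA36. That of TA64 to TA99, another stretch outside the low blocks, was 1.21 ± 0.03 and that of the 100 plates of the TB series 1.06 ± 0.04. Within the stretch the SD was 1.56 ± 0.09 on even-numbered and 1.22 ± 0.03 on odd-numbered plates, a split made after the values were seen. The odd-numbered plates were thus close to TA64 to TA99 in spread. Tiles with a mean more than 2 below the array median made up 11.1% of the stretch (207 tiles) and 11.5% of TA31 to TA36, 5.65% of TA64 to TA99 and 1.87% of the TB series, beside 13.4% of the whole array. Tiles more than 2 above it made up 2.25% of the stretch, 2.34%, 2.97% and 3.42% of these other plates in the same order, and 2.49% of the array. The stretches were delimited on these levels, so no test of the differences was made.

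**Figure D1:**
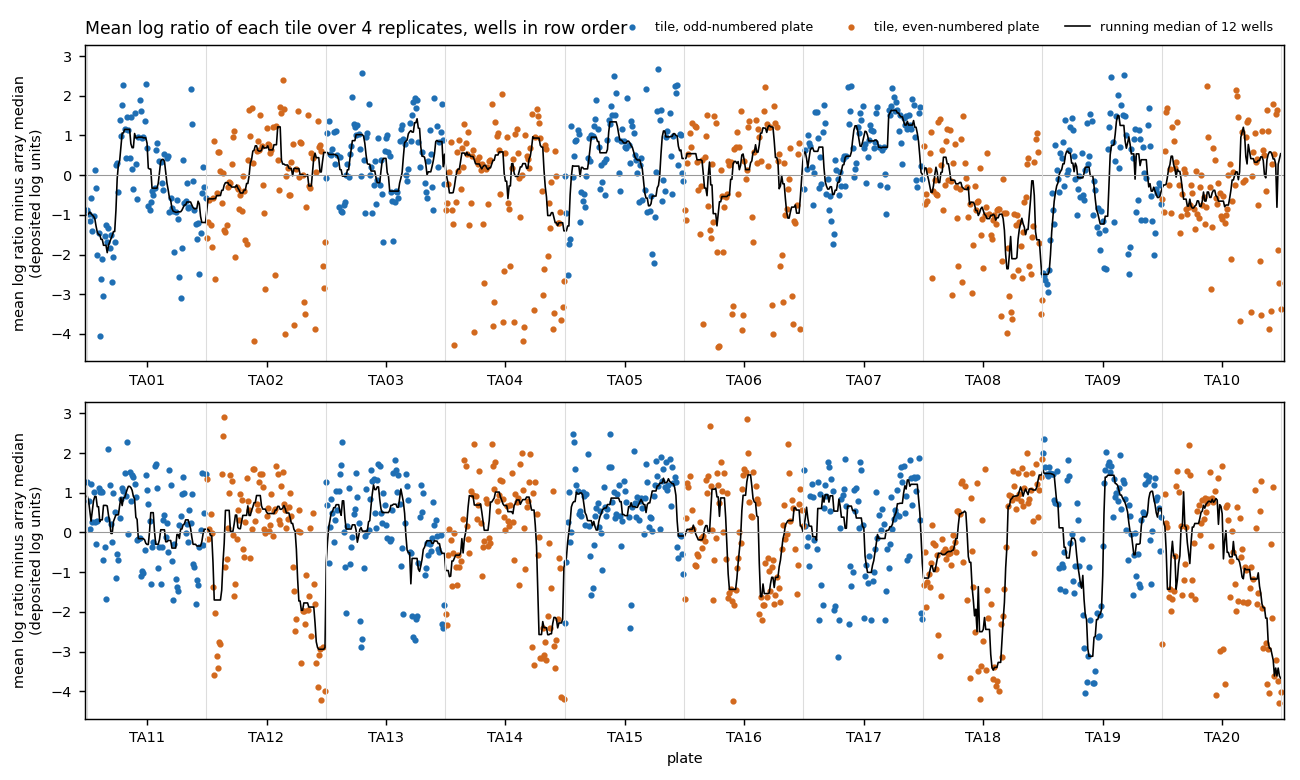
Mean log ratio of each tile over 4 replicates (y axis, deposited log units minus the array median) against its well in row order (x axis, plates TA01 to TA20 in 2 panels). Blue points are tiles of odd-numbered plates, orange points tiles of even-numbered plates, and the black line is the running median of 12 wells. Short high and low segments alternate, and tiles below -3 are mostly orange.

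Plate medians lay on both sides of the array median. TA07 was the highest plate, with medians of 0.74, 0.84, 0.81 and 0.89 in I to IV, a mean of 0.82 ± 0.06 (SD, n = 4). TA08, the next plate, was the lowest, with -0.73, -0.90, -0.72 and -0.97 in I to IV, a mean of -0.83 ± 0.13. The medians of the 2 neighbouring plates therefore lay on opposite sides of the array median in every replicate. On TA07 63 of 95 tiles were above the array median, and on TA08 64 of 94 were below it. Their single tiles overlapped, with tile means from -1.75 to 2.26 on TA07 and from -3.97 to 1.48 on TA08. The other plates lay between these extremes. The median was above the array median in all 4 replicates on 9 plates and below it in all 4 on 6 plates, and the remaining plates were mixed. The last plate, TA20, had a median of -0.55 ± 0.07, and the first, TA01, one of -0.50 ± 0.05, both below that of the whole stretch. The last even-numbered plates were at -0.01 (TA16), -0.37 (TA18) and -0.55 (TA20), and the odd-numbered plates between them at 0.43 (TA17) and 0.37 (TA19). A trend over plate number was not tested.

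**Figure D2:**
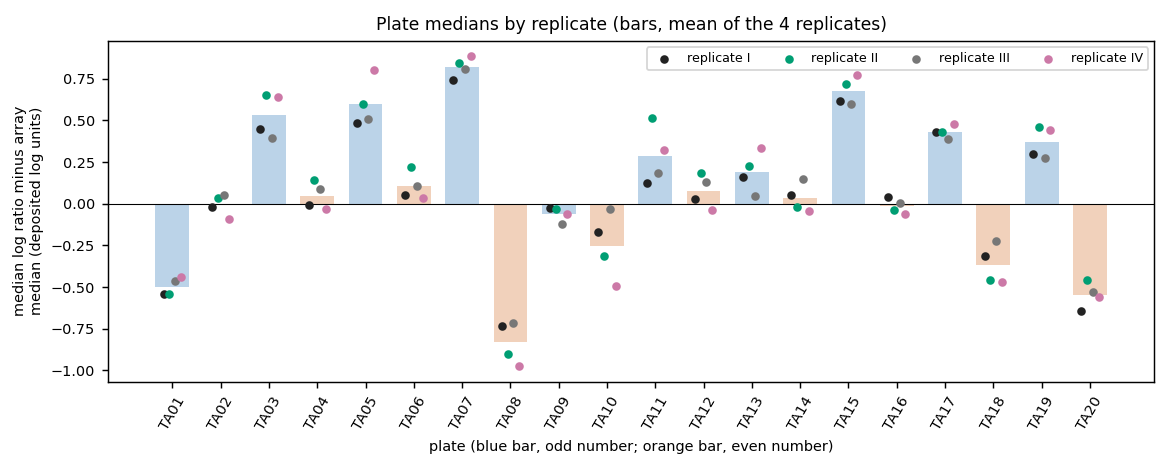
Median log ratio of each plate (y axis, deposited log units minus the array median) for plates TA01 to TA20 (x axis). Points are the 4 replicates and bars their mean, blue for odd-numbered and orange for even-numbered plates. TA07 is highest and TA08 lowest in every replicate.

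Variation within plates exceeded that between them. The interquartile range of tile means within a plate ran from 1.05 to 2.40, with a median of 1.76, while the SD of the 20 plate medians was 0.43. Plate means accounted for 9.03% of the variance of tile means. Most of what distinguished tiles of the stretch therefore lay at a scale shorter than a plate.

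At that shorter scale, tiles of like value stood together. Tiles called above the array median in adjoining wells made up 270 runs, on average 3.13 tiles long, of which 51 held 5 tiles or more. Those called below it made up 253 runs, on average 2.87 tiles long, of which 43 held 5 or more. Runs of 5 or more held 49.1% of the tiles above and 45.0% of those below. Among 1295 adjacent pairs of tiles that both passed the test, 248 (19.2%) lay on opposite sides of the array median. A change from one side to the other between neighbours was thus the less common case.

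The longest run above the array median was TA07F09 to TA07H06, with 22 tiles on the last rows of the highest plate. Its mean was 1.34, 1.58, 1.28 and 1.58 in I to IV, or 1.44 ± 0.16 (SD, n = 4), and its tiles ran from 0.28 to 2.19. The next was TA18F09 to TA18H04, with 20 tiles and means of 0.99, 1.17, 0.97 and 1.23 in I to IV. The third was TA19E02 to TA19F07, with 18 tiles and means of 1.16, 1.41, 1.12 and 1.43. In all 3 runs replicates II and IV were higher than I and III. A further run of 16 tiles, TA18H10 to TA19B01, crossed from an even-numbered plate to an odd-numbered one at a mean of 1.45 ± 0.08.

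The longest run below the array median was TA08F06 to TA08G11, with 18 tiles. Its mean was -1.81, -1.97, -1.69 and -2.12 in I to IV, or -1.90 ± 0.19 (SD, n = 4). TA01A08 to TA01B11, near the start of the stretch, had 16 tiles and means of -1.90, -2.03, -1.87 and -1.99 in I to IV. TA16F01 to TA16G03 had 15 tiles and means of -1.38, -1.56, -1.29 and -1.39. These runs were somewhat shorter than the longest ones above the median. The run TA08H10 to TA09A10, with 13 tiles and a mean of -2.17 ± 0.07, crossed a plate boundary.

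Likeness of neighbours fell off within a few tiles. Over 1811 adjacent pairs of wells Pearson's r was 0.56 ± 0.01 (SD over 4 replicates; tiles of a pair share the arrays). At a distance of 2 wells it was 0.32 ± 0.03, at 5 wells 0.18 ± 0.02 and at 12 wells 0.11 ± 0.02. With each plate's median removed the adjacent r was 0.52 ± 0.01 and that at 12 wells 0.06 ± 0.02. Within odd-numbered plates the adjacent r was 0.66 and within even-numbered plates 0.46. Across plate joins, from well H12 to A01 of the next plate, r was 0.28 ± 0.08, over only 18 joins. In TA31 to TA36 the adjacent r was 0.70 ± 0.01 and in TA64 to TA99 0.59 ± 0.02. Read down the well columns instead of along the rows, adjacent tiles of the stretch had an r of 0.14, so the rows are the order in which neighbours were alike.

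The 10 highest tiles had means from 2.47 to 2.91 and stood on 6 plates. TA12B03, the highest, had log ratios of 2.95, 2.80, 2.98 and 2.94 in I to IV (mean 2.91 ± 0.08, limma adjusted p = 2.4e-07) and ranked 37 from the top of the array. It stood at the end of a rise: TA12B02 before it was at 2.42, and TA12B04 after it at -0.87. TA16E03 had 2.80, 2.90, 2.57 and 3.11 in I to IV (mean 2.85 ± 0.22, limma adjusted p = 4.2e-07), between tiles at 1.51 and 2.0. TA16B09 had 2.82, 2.56, 2.76 and 2.63 (mean 2.69 ± 0.12, limma adjusted p = 3e-07), between 1.42 and 1.18. TA03C06, at 2.58 ± 0.29, was an exception in standing between tiles near the array median, at -0.01 and 0.38. Of the 20 neighbours of these 10 tiles, 18 were above the array median but only 3 were more than 2 above it. The stretch held 15 of the 213 tiles in the top 1% of the array, or 7.0% of them.

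The 10 lowest tiles had means from -4.32 to -4.17, within a narrow range, and stood on 8 plates, every one even-numbered. TA06C04, the lowest, had log ratios of -4.19, -4.59, -4.14 and -4.38 in I to IV (mean -4.32 ± 0.20, limma adjusted p = 2.4e-07) and ranked 19 from the bottom of the array. The tile after it, TA06C05, had -4.07, -4.41, -4.18 and -4.56 (mean -4.30 ± 0.22, limma adjusted p = 2.4e-07), and the one after that, TA06C06, was at 0.13. TA04A08 had -4.25, -4.40, -3.90 and -4.59 (mean -4.29 ± 0.29, limma adjusted p = 2.4e-07), between tiles at -1.22 and -0.67. TA16D04, at -4.25 ± 0.17, lay between -1.73 and -1.82, and TA04F03, at -4.18 ± 0.30, followed a tile at 0.01. Replicate IV was the lowest of the 4 in 9 of these 10 tiles and III the highest in 8. Of the 18 neighbours with a value, 15 were below the array median and 10 were more than 2 below it. The stretch held 47 of the 213 tiles in the bottom 1% of the array, or 22.1% of them, while it held 8.76% of all tiles.

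Very low tiles were unequally divided between odd-numbered and even-numbered plates, as was seen only once the values were at hand, and is given without a test. On the 10 even-numbered plates 86 of 922 tiles (9.33%) had a mean more than 3 below the array median, and on the 10 odd-numbered plates 10 of 943 (1.06%). In single replicates the counts on even-numbered plates were 78, 89, 64 and 107 in I to IV, and on odd-numbered plates 13, 7, 11 and 9. Every even-numbered plate had such a tile and 3 of the odd-numbered plates did (TA01, TA17 and TA19). In TA31 to TA36 the division ran the other way, with 5 of 282 tiles (1.77%) on even-numbered and 17 of 274 (6.20%) on odd-numbered plates. In TA64 to TA99 the same shares were 0.732% on even-numbered and 1.42% on odd-numbered plates, and in the TB series 0.553% and 0.399%. Tiles more than 2 below numbered 149 (16.2%) on even-numbered and 58 (6.15%) on odd-numbered plates of the stretch. The median over all tiles of the even-numbered plates was -0.16 ± 0.08 (SD, n = 4) and that of the odd-numbered plates 0.38 ± 0.08. The former was the lower in every replicate. Single plates overlapped: the odd-numbered TA01 was at -0.50 and TA09 at -0.06, and the even-numbered TA06 at 0.10 and TA12 at 0.08.

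On the even-numbered plates the very low tiles were unevenly spread over the well rows. Row H held 28 of the 86, row F 17 and row D 14, so that 59 lay in these 3 rows (68.6%), picked after their counts were seen, which held 36.8% of the tiles of these plates. The 86 tiles stood in 46 wells. The wells with most of them were F12 and H12, each more than 3 below on 5 of 9 even-numbered plates with a value. H12 was at -1.68 on TA02, -2.67 on TA04, -3.14 on TA08, -3.36 on TA10, -4.00 on TA12, -4.20 on TA14 and -4.01 on TA20, but at 0.17 on TA16 and 1.84 on TA18. On the odd-numbered plates H12 ran from -2.18 to 1.47. The part of plate and well in these low values was not tested.

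**Figure D3:**
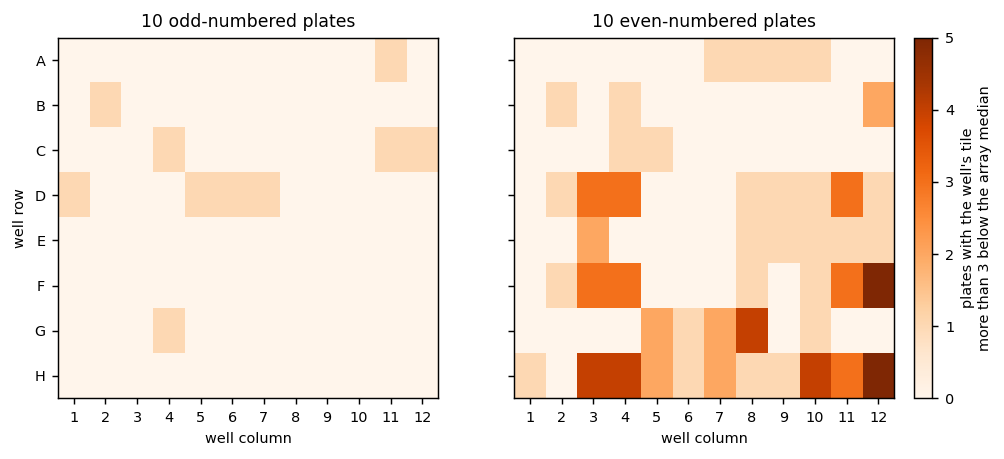
Wells of the 96-well plates (x axis, column; y axis, row) shaded by the number of plates on which the well's tile had a mean more than 3 below the array median, for the 10 odd-numbered plates (left) and the 10 even-numbered plates (right) of TA01 to TA20. The even-numbered plates hold 86 such tiles, most of them in rows D, F and H, and the odd-numbered plates 10.

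Some even-numbered plates resembled each other over all their wells. With each plate's median removed, Pearson's r over 93 wells was 0.62 between TA12 and TA14. Among TA02, TA04, TA06 and TA10 the r of every pair lay between 0.46 and 0.60 (86 to 93 wells). Over all 45 pairs of even-numbered plates the median r was 0.07, over the 45 pairs of odd-numbered plates 0.00, and over the 81 pairs of one kind with the other that do not adjoin in number 0.01. Single pairs of even-numbered plates ranged from -0.49 to 0.62, pairs of odd-numbered plates from -0.47 to 0.33 and mixed pairs from -0.45 to 0.36, and the pairs given first are the highest. In the TB series 1225 pairs of even-numbered plates ranged from -0.43 to 0.47 around a median of -0.00, and 2401 mixed pairs from -0.59 to 0.64. In TA64 to TA99 153 pairs of even-numbered plates ranged from -0.37 to 0.34 around 0.03. An r of 0.62 was thus reached there among mixed TB pairs but not among pairs of even-numbered plates. A range widens with the number of pairs, so these ranges are not directly comparable.

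Large steps between neighbouring tiles followed the same division. Few tiles were more than 2 above the array median (2.25%), so counts of large steps are not independent of the low tiles already given. The median step between adjacent tiles was 0.64, and 84 of 1811 steps exceeded 3, of which 79 had a tile on an even-numbered plate and 5 lay on odd-numbered plates alone (895 and 916 pairs). The largest was from TA06F12 at -4.01 to TA06G01 at 1.75, with steps of 5.49, 6.17, 5.43 and 5.97 in I to IV. From TA04D10 at 2.04 to TA04D11 the mean fell by 5.72, and from TA02F03 at 1.67 to TA02F04 by 5.67. Each of these steps was more than 10 times the SD over replicates of the step.

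Low patches were not confined to even-numbered plates. Consecutive tiles all more than 2 below the array median formed 18 patches of 3 tiles or more, holding 83 of the 207 such tiles; 13 began on even-numbered and 5 on odd-numbered plates. The longest, TA08H11 to TA09A06, had 8 tiles, ran from an even-numbered plate into the next odd-numbered one, and had means of -2.85, -2.77, -2.69 and -2.87 in I to IV. On TA19, an odd-numbered plate, TA19C09 to TA19D01 had 5 tiles with means of -3.56, -2.90, -3.45 and -2.84 in I to IV, and TA19D05 to TA19D11 had 7 tiles with -3.12, -2.72, -3.13 and -2.73. In both patches of TA19 replicates I and III were lower than II and IV. On the even-numbered TA14, the 7 tiles of TA14G05 to TA14G11 had -2.70, -2.97, -2.47 and -3.21, where IV was the lowest and III the highest. Patches more than 2 above the array median were rare, with a single one of 3 tiles, TA05H05 to TA05H07, at 2.19 ± 0.07.

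Some of the differences between replicates alternated with plate number as well. The median of III minus I was from 0.08 to 0.13 on the 10 even-numbered plates and from -0.05 to 0.04 on the 10 odd-numbered plates, with no overlap. The median of IV minus III was from -0.42 to -0.08 on even-numbered plates and from -0.06 to 0.21 on odd-numbered plates. On even-numbered plates it was largest among low tiles: IV minus III had a median of -0.63 over the 149 tiles more than 2 below the array median, -0.30 over tiles from there up to the median, and 0.01 over tiles more than 1 above it. On odd-numbered plates the corresponding values were -0.01, 0.00 and 0.18. Low tiles with IV below III were not confined to even-numbered plates. On the odd-numbered TA21, just outside the stretch, the row A median was -3.57 in III and -4.15 in IV. Row B of TA21 was at -2.75 in III and -3.58 in IV. In rows C to F and H of TA21 IV was above III, as in row E with -2.24 in III and -1.64 in IV, and in row G slightly below it. Other differences between replicates overlapped between the 2 kinds of plate. The median of II minus I was from -0.13 to 0.01 on even-numbered and from -0.08 to 0.25 on odd-numbered plates. That of IV minus II was from -0.26 to -0.00 on even-numbered and from -0.09 to 0.12 on odd-numbered plates. The median SD over replicates of a tile was 0.26 on even-numbered and 0.21 on odd-numbered plates. In TA64 to TA99 the median of III minus I ran from -0.06 to 0.10 on even-numbered and from -0.08 to 0.17 on odd-numbered plates, which overlap. There IV minus III was from -0.00 to 0.26 on even-numbered and from -0.31 to 0.13 on odd-numbered plates.

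**Figure D4:**
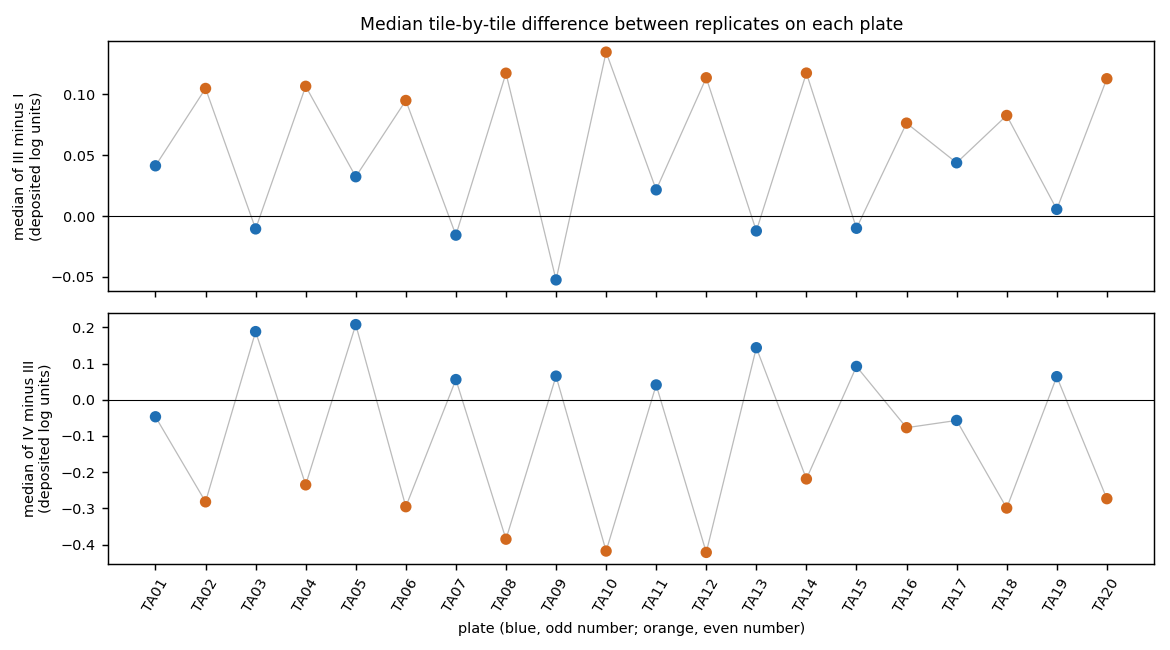
Median over the tiles of each plate of the difference III minus I (top) and IV minus III (bottom), in deposited log units (y axes), for plates TA01 to TA20 (x axis). Even-numbered plates (orange) lie above all odd-numbered plates (blue) in the upper panel, from 0.08 against at most 0.04, and below them in the lower panel.

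The tiles that varied most between replicates were also on even-numbered plates. TA02E09 had 0.41, 2.27, 0.37 and 1.91 in I to IV, so that II and IV stood apart from I and III (mean 1.24 ± 0.99, limma adjusted p = 0.0089). TA06E10 had 0.63, 2.10, 0.58 and 2.23 in I to IV (mean 1.38 ± 0.90, limma adjusted p = 0.0033). TA12E08 had -0.45, 1.76, 0.07 and 0.99 (mean 0.59 ± 0.98) and did not pass, with a limma adjusted p = 0.13. In each of them both II and IV exceeded both I and III.

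At the beginning of the stretch a low segment gave way to a high one. The median of well row A of TA01 was -1.16 ± 0.20 (SD, n = 4) and that of row B -1.72 ± 0.11, with 11 of 12 tiles of each row below the array median. Row C of the same plate was at 1.15 ± 0.10 and row D at 1.03 ± 0.06. Rows E to H returned below the array median, from -0.79 in row G to -0.22 in row E. The order of rows was alike in the replicates, in each of which rows A and B were the lowest and rows C and D the highest.

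At the other end the last rows of plate TA20 were low. On TA19 the row medians still went from -2.60 ± 0.20 in row D to 1.52 ± 0.11 in row A. On TA20 row D was at 0.75 ± 0.18, and the rows after it were at -0.61 ± 0.31 in E, -0.95 ± 0.26 in F, -1.35 ± 0.18 in G and -3.61 ± 0.25 in H. Row A of TA21, the first outside the stretch, was at -3.87 ± 0.25. Row H was also the row with most very low tiles on the even-numbered plates, and TA20 is one of them; wells H03, H04 and H10 were more than 3 below on 4 even-numbered plates each and H12 on 5, although TA20H04 itself was at -0.28. Whether the low values of row H of TA20 belong with the block or with this row was not tested. Inside the boundary, TA20H06 was at 1.15, TA20H07 at -3.61, TA20H08 at -3.21, TA20H10 at -3.73, TA20H11 at -4.28 and TA20H12 at -4.01. Outside it, TA21A01 was at -3.74, TA21A02 at -3.40, TA21A03 at -4.00, TA21A04 at -4.14, TA21A07 at -4.13 and TA21A08 at -4.09. TA20H06, the last high tile before the block, had 1.23, 1.05, 1.57 and 0.76 in I to IV. Beyond it row D of TA21 came back to -0.14 ± 0.16, and every later row of TA21 and TA22 with 3 tiles or more had a median from -4.41 to -1.82.

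**Figure D5:**
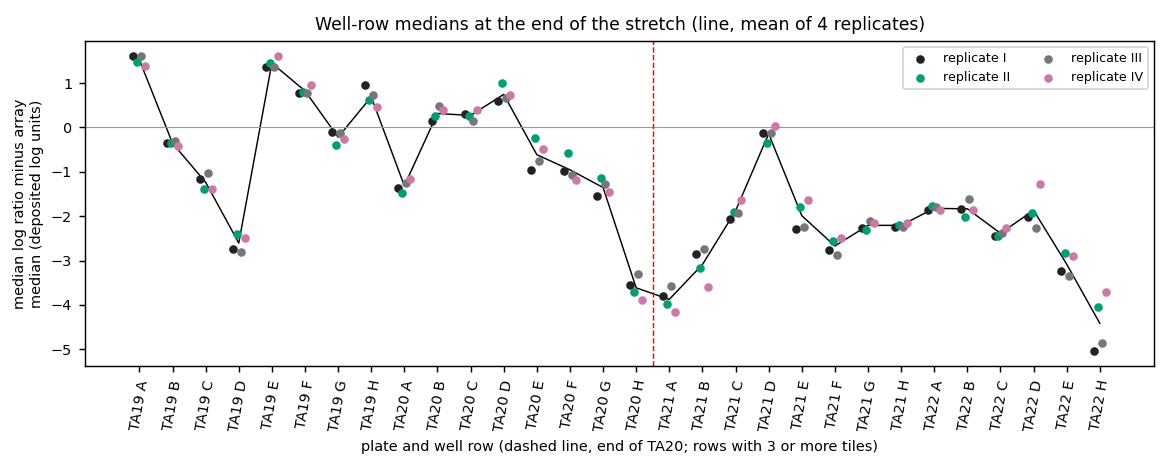
Median log ratio of each well row (y axis, deposited log units minus the array median) of plates TA19 to TA22 in order (x axis; rows with 3 or more tiles). Points are the 4 replicates, the line is their mean and the dashed line marks the end of TA20. From row D of TA20 at 0.75 the medians fall over 4 rows to -3.61, and continue at -3.87 in row A of TA21.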

How the data were processed

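The values used were the authors' deposited table of log ratios of IP and input on 8 two-channel arrays; scanner intensities were not used here, so the signal over background could not be examined. How the log ratios were computed (software, background correction, normalization, base, direction) is not given in the sources used here. For each replicate (I to IV) the value common to both arrays of a dye swap was taken and centred on the array's median, taken over all 21296 measured tiles, with no further normalization. Each tile's mean was tested against 0 on the whole table with limma (lmFit, eBayes, version 3.58.1, run in R 4.3.3) and Benjamini-Hochberg adjustment at 0.05. The fit was also tested on simulated data with independent replicates, drawn with the spread fitted to each tile. That test does not cover replicates that are alike in pairs. Other values were computed in Python 3.11.15 with pandas 2.3.3. The number of arrays limits the precision, with a median standard error of 0.11 for a tile of the stretch. The replicates I and III, and II and IV, resemble each other, so p-values are too small where the replicates of a pair are not independent. A run or a pair was ended by a missing well. The members and lists were chosen with earlier results of these data known. The rule for named tiles took, the 10 highest and 10 lowest among called tiles whose replicates all had 1 sign, the 3 longest runs on each side, the 3 tiles with the largest SD whether called or not, the highest and lowest plate, and the tiles and well rows at the ends; other tiles, runs, wells and steps were picked after their values were seen. Alternatives were other centring and scaling, replicates left out or averaged in pairs, a minimum distance from the median, other well orders, and odd-numbered or even-numbered plates alone.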

Additional observations from a re-analysis of the deposited data

How the results depend on the processing

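The number of tiles above the median and the sign of the stretch's median depended on the choice of zero, and the latter also on which plates were used. With values as deposited 395 tiles were above 0 and the median was -0.49, and with each array centred on its mode 449 were above and the median was -0.50, against 845 and 0.13 with the array median; the mean length of runs above became 1.91 and 2.01 tiles, and 29.3% and 31.0% of called tiles were above, against 53.8%. Under these settings the median tile of the whole array lay at -0.61 and -0.63. Read down columns, runs had mean lengths of 2.0 (above) and 1.84 (below), and adjacent tiles an r of 0.14. With tiles taken as consecutive across missing wells this r was 0.54, and with each plate's median removed, chosen after seeing the data, 0.52. Odd-numbered plates alone, also chosen after seeing the data, had a median of 0.38 and an r of 0.66, and even-numbered plates alone -0.16 and 0.46. With each replicate pair (I with III, II with IV) averaged first, 759 tiles stood above and 649 below, where limma pooled the spread of all tiles; 1406 of the 1570 tiles called with 4 replicates were called on the same side. Leaving out each replicate, quantile normalization, scaling and a minimum distance of 0.58 kept both counts within 1.5 times. Of 28 named tiles, 25 kept their side and their call under all 9 settings run; TA02E09 and TA06E10 lost the call without centring, and TA12E08 gained it with averaged pairs and without replicate I. No paired analysis was possible because there is 1 group.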
